A study of Mus musculus with 4 samples.

Results

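The SWI/SNF chromatin remodeller of mouse embryonic stem cells (ESCs), also called the BAF complex, was followed through the RNA of 10 of its subunit genes. These were the ATPases Smarca4 and Smarca2, the ARID subunits Arid1a and Arid1b, the scaffold subunits Smarcc1 and Smarcc2, the linker subunits Smarcd1 and Smarcd3, and the core subunits Smarcb1 and Smarce1. They were chosen by symbol, all 10 were found among the 48526 gene rows of the count tables, and all 10 passed the filter on low counts. RNA sequencing had been done on 4 libraries of mouse ESCs, which the study methods describe as the R1 line. Of these, 2 were labelled wild type (WT) and 2 were labelled as knockout clone 2 (KO2) of Zfp296. This zinc finger gene had been cut in its first exon with CRISPR/Cas9. The study methods describe one culture for these lines, on gelatine in serum medium with leukaemia inhibitory factor and the MEK and GSK3 inhibitors PD0325901 and CHIR99021. All KO2 libraries carried the label of a single clone, so differences between clones or sublines and an effect of the targeted gene cannot be told apart. The labels call the replicates biological, and separate cultures are not described further.

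BAF complexes use the energy of ATP to slide or evict nucleosomes. Each complex carries 1 ATPase, BRG1 (encoded by Smarca4) or BRM (Smarca2), and fills several other positions with 1 of a set of paralogues, so that cell types differ in the make-up of the complex. The ESC form is known for BRG1, ARID1A and SMARCC1, whereas BRM and SMARCC2 are more prominent in differentiated cells. The ARID subunits help to guide the complex, the SMARCC subunits form its scaffold, the SMARCD subunits link the ATPase to the rest and to transcription factors, SMARCB1 contacts the nucleosome, and SMARCE1 carries an HMG domain.

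Because the ATPase pair gave the clearest contrast between the groups, the 250 bases before the RefSeq start of these genes are shown. Capitals mark the GC box, GGGCGG on either strand. The sequences are from RefSeq (table of GRCm38.p6), and each matched 1 site of the mm9 genome (NCBIM37), directly before the annotated gene start. The Smarca4 stretch lies at chr9:21420363-21420612 and Smarca2 at chr19:26679400-26679649, both on the plus strand.
Smarca4 promoter: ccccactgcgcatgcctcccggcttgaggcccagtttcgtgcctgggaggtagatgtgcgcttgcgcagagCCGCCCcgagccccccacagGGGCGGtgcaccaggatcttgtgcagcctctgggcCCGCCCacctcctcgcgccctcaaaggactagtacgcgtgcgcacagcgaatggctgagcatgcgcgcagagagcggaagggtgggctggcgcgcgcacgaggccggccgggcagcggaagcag
Smarca2 promoter: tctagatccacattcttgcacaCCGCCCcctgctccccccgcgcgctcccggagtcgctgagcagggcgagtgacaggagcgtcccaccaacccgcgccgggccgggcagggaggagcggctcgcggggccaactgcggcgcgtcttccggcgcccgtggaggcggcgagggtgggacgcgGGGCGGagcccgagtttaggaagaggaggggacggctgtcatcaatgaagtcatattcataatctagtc
The Smarca4 stretch held 3 GC boxes and 25 CpG dinucleotides at 70.8% G and C, and the Smarca2 stretch held 2 GC boxes and 28 CpG dinucleotides at 68.4%. Among 32851 RefSeq promoters, 32.7% held a GC box in these 250 bases, the median number of CpG dinucleotides was 6 and the median G and C content was 52.4%. Neither ATPase stretch held CCAAT, which 33.8% of promoters held, the octamer ATTTGCAT (1.6%) or the telomere-repeat hexamer TTAGGG (9.32%), each searched on both strands. Promoter windows were found for 9 of the 10 subunit genes and ranged from 18 to 40 CpG dinucleotides.

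The count tables held 2829914 and 4334499 gene counts for WT and 7470907 and 7437294 for KO2, so a count of 3 stood for 1.12 and 0.709 normalized CPM, which are counts scaled to a common library size, in WT and for 0.380 and 0.401 CPM in KO2. Zfp296 RNA went against its label. Its counts were 31 and 31 under the WT label and 416 and 282 under the KO2 label, a log2 fold change of 2.31 (SE 0.285, edgeR adjusted p = 4.64e-05). The count over the gene cannot settle whether the labels are right, as an edit in an exon can leave the transcript in place. The cause of the higher count under the KO2 label was not tested. The study checked its knockout clones by mass spectrometry, which is not analysed here. The Y-linked Ddx3y gave 0 and 1 counts under the WT label but 1979 and 2197 under the KO2 label. Uty gave 0 and 0 against 723 and 799, and Eif2s3y gave 0 and 0 against 2014 and 2119. This difference runs along the labels in every comparison here, that of Smarca2 included. The cause of this Y-linked difference was not tested, whether a different subline, an error in the labels or another. Groups are therefore named by their labels, and the direction of every difference rests on those labels. ESC identity was checked with 8 pluripotency genes, whose summed level was 5677 to 6108 CPM, against 9.76 to 15.6 CPM for 8 fibroblast genes and 3.07 to 10.4 CPM for 8 primitive endoderm genes. The pluripotency sums of the groups overlapped, and the median log2 fold change of the 8 genes was 0.04. Of the 8, 1 passed the edgeR test, against 5.64% of all genes tested. This was Sox2, a core pluripotency factor. It fell from 873 and 806 CPM in WT to 483 and 489 CPM in KO2 (log2 fold change -0.79, SE 0.102, edgeR adjusted p = 7.82e-05). Both KO2 values were above both WT values for 2 of the 8 (Tfcp2l1 and Dppa5a) and below them for 3, Sox2 included. Over all genes tested these shares were 25.4% and 23.4%. Of the fibroblast genes, Lum, Postn and Dcn had 0 counts in every library. Fbn1 made up most of the fibroblast sum, at 11.2 and 12.1 CPM in WT and 9.89 and 8.82 CPM in KO2.

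Of the 10 BAF genes, 1 was higher in the KO2-labelled libraries at an adjusted p under 0.05 (Smarca2), 0 were lower and 9 did not pass the test. Over all 12883 genes tested, 5.64% passed, 2.6% higher and 3.04% lower, so 1 of 10 is close to that background. At an unadjusted p under 0.05, edgeR gave 4 of the 10, against 19.4% of all genes tested. By groups that did not overlap, 7 of the 10 genes separated WT from KO2, against 48.8% of all genes tested (25.4% with KO2 above and 23.4% with KO2 below). Of these 7, Smarca4, Smarca2, Arid1a, Arid1b and Smarcb1 had both KO2 values above both WT values, and Smarcc2 and Smarcd1 had both below. The median log2 fold change was 0.04 for the 10 genes and 0.01 for all genes tested, and the median size regardless of direction was 0.22 and 0.27. In bulk RNA, fewer cells with a transcript and less of it per cell cannot be told apart. Summed over the 10 genes, the level was 864 and 861 CPM in the WT libraries and 915 and 858 CPM in the KO2 libraries, so the summed level of the groups overlapped.

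**Figure D1:**
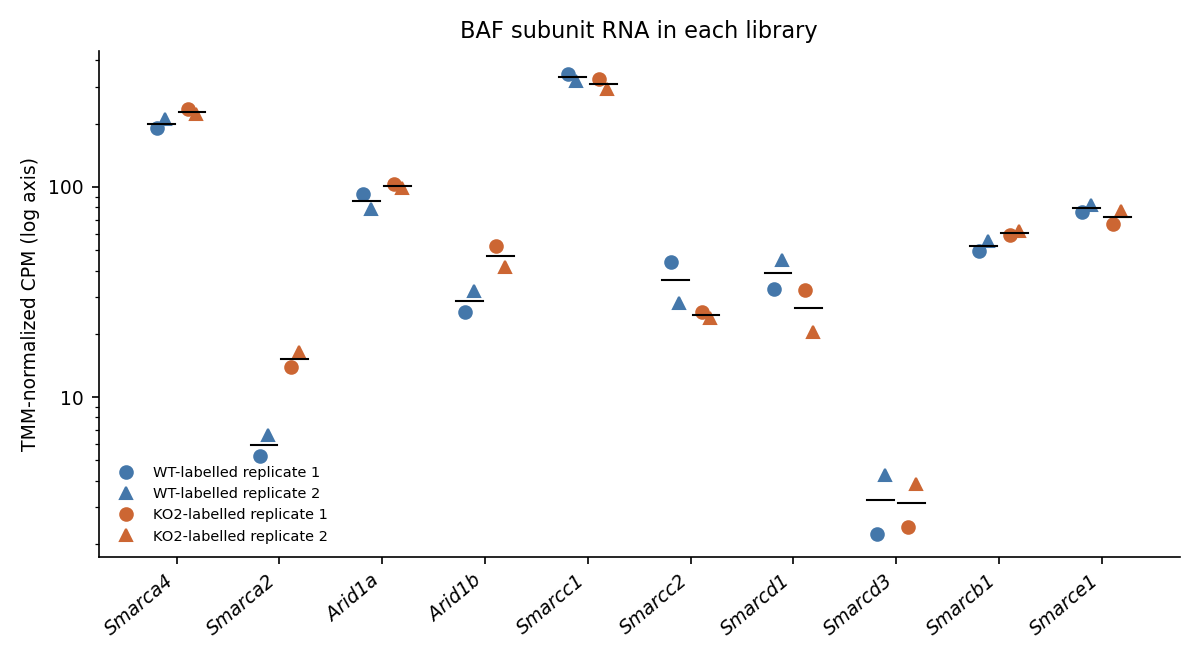
TMM-normalized CPM (log axis) of each BAF gene in the 2 WT-labelled (blue) and 2 KO2-labelled (orange) libraries, with black lines at the group means. Smarca2 lies at 5.22 and 6.62 CPM in WT and at 13.9 and 16.3 CPM in KO2, whereas the groups overlap for Smarcc1, Smarcd3 and Smarce1.

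By counts, the ATPases were the most unequal of the 4 pairs in every library. Per length of annotated exons this did not hold in KO2 replicate 1, where the ratio was 16.6 for Smarca4 to Smarca2 and 19.4 for Smarcd1 to Smarcd3. Smarca4 (ENSMUSG00000032187, mm9 chr9:21420613-21508674, plus strand), the main ATPase of ESC BAF, was covered by 510 and 891 reads in the WT libraries and by 1845 and 1669 in the KO2 libraries. Its normalized level was 190 and 211 CPM in WT and 234 and 223 CPM in KO2, so both KO2 values were above both WT values. The group means were 200 ± 14.5 and 229 ± 7.68 CPM (SD, n = 2 each), and the log2 fold change of 0.19 (SE 0.116) did not pass the test (edgeR adjusted p = 0.405).

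Smarca2 (ENSMUSG00000024921, mm9 chr19:26679650-26852811, plus strand), the alternative ATPase, was covered by 14 and 28 reads in the WT libraries and by 110 and 122 in the KO2 libraries. It was at 5.22 and 6.62 CPM in WT and at 13.9 and 16.3 CPM in KO2, and the gap between the groups was wider than the gap within either. The means were 5.92 ± 0.989 and 15.1 ± 1.67 CPM (SD, n = 2 each), a log2 fold change of 1.32 (SE 0.381, edgeR adjusted p = 0.0485). This call was near the threshold. It was lost when any 1 of the 4 libraries was left out (adjusted p = 0.162 without WT replicate 1, 0.097 without WT replicate 2, 0.0593 without KO2 replicate 1 and 0.142 without KO2 replicate 2) and with DESeq2 (adjusted p = 0.13), ERCC spike-in scaling (0.155) or no filter on low counts (0.207), while the log2 fold change stayed between 1.19 and 1.53 over 11 alternatives. Over those alternatives the adjusted p ran from 0.0283 to 0.207, and 4 passed the threshold.

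Markers of neural progenitors were also higher in sum in the KO2-labelled libraries. The summed level of 6 such genes was 146 and 142 CPM in WT and 192 and 185 CPM in KO2, carried by Nes, an intermediate filament gene, and Tubb3, a neuronal tubulin gene. Neither passed the test (edgeR adjusted p = 0.158 for Nes and 0.164 for Tubb3). Both had an unadjusted edgeR p under 0.05, as did 19.4% of all genes tested. Of the neural factors, Olig2 and Neurod1 had 0 counts in every library, and Pax6 had 0 and 1 in WT and 13 and 6 in KO2 and was not tested. The part of these genes in the Smarca2 difference was not tested.

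The ratio of Smarca4 to Smarca2 counts was 36.4 and 31.8 in WT and 16.8 and 13.7 in KO2. No value of one group reached the other, and on the log2 scale the ratio was lower in KO2 by a difference of -1.14, a 2.2-fold lower ratio, against a pooled SD between replicates of 0.17. With 2 libraries against 2, an exact two-sided permutation test has 6 arrangements and cannot go below p = 0.333, which is what this pair gave (0.444 after Benjamini-Hochberg adjustment over the 4 pairs compared). The difference between the fitted log2 fold changes of the paralogues was -1.13 (SE 0.398, an approximate error that treats the genes as independent). Smarca2 made up 2.67% (95% Wilson interval 1.6 to 4.43) and 3.05% (2.12 to 4.37) of the pair's counts in WT, and 5.63% (4.69 to 6.74) and 6.81% (5.74 to 8.07) in KO2. The WT intervals ended below the start of both KO2 intervals. These intervals cover counting error only. Per length of annotated exons, Smarca2 was 2.89% ± 0.268 of the pair in WT and 6.27% ± 0.845 in KO2 (SD, n = 2 each), so Smarca4 was the predominant ATPase RNA under both labels.

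**Figure D2:**
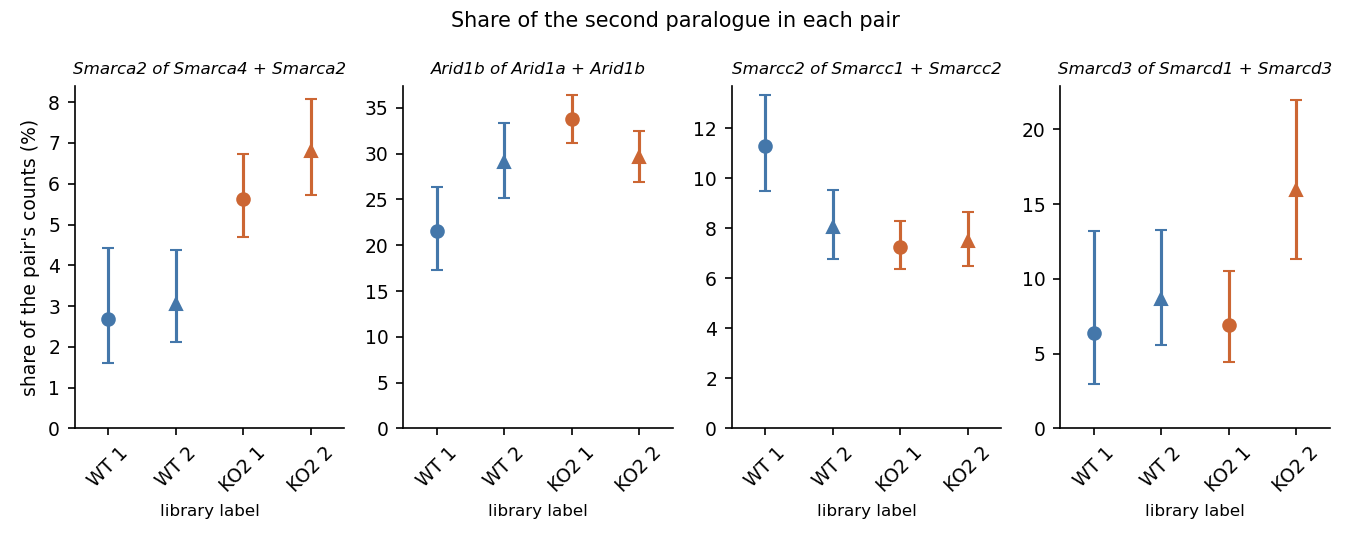
Share of the second paralogue in the counts of each pair (%, linear axes starting at 0), by library; circles are replicate 1 and triangles replicate 2, blue for WT-labelled and orange for KO2-labelled, and bars are 95% Wilson intervals for counting error. The intervals of Smarca2 separate by label, while for Arid1b, Smarcc2 and Smarcd3 the interval of WT replicate 2 overlaps those of both KO2 libraries.

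The ARID subunits define the canonical BAF complex, as a given complex holds either ARID1A or ARID1B. Arid1a (ENSMUSG00000007880, mm9 chr4:133234923-133312684, minus strand) was covered by 248 and 332 reads in the WT libraries and by 815 and 742 in the KO2 libraries. The WT levels were 92.4 and 78.4 CPM and the KO2 levels 103 and 99.2 CPM. Both KO2 values lay above WT, but the log2 fold change of 0.25 (SE 0.142) did not pass the test (edgeR adjusted p = 0.349). Arid1b (ENSMUSG00000069729, mm9 chr17:4994332-5347656, plus strand) was covered by 68 and 136 reads in the WT libraries and by 415 and 312 in the KO2 libraries. Its level was 25.3 and 32.1 CPM in WT and 52.6 and 41.7 CPM in KO2, with no overlap. The means were 28.7 ± 4.8 and 47.2 ± 7.72 CPM (SD, n = 2 each), and the log2 fold change was 0.70 (SE 0.207, edgeR adjusted p = 0.0545), just short of the threshold. It passed in 4 of 11 alternatives, one of them without KO2 replicate 2 (adjusted p = 0.0211), and the adjusted p reached 0.48 with scaling to the ERCC spike-ins.

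The ratio of Arid1a to Arid1b counts was 3.65 and 2.44 in WT and 1.96 and 2.38 in KO2. The lower WT value and the higher KO2 value were nearly level. The log2 difference was -0.46 with a pooled SD of 0.32 (exact two-sided permutation p = 0.333, adjusted 0.444), and the fitted difference was -0.44 (SE 0.251). Arid1b was 21.5% and 29.1% of the pair's counts in WT and 33.7% and 29.6% in KO2. Per exon length it was 23.6% ± 5.08 in WT and 29.7% ± 2.82 in KO2 (SD, n = 2 each), so Arid1a was the larger in each library. Without WT replicate 1 the log2 difference of the ratio was -0.17.

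The scaffold pair was led by Smarcc1 (ENSMUSG00000032481, mm9 chr9:110034541-110142682, plus strand), which encodes BAF155. Its counts, 928 and 1350 in WT and 2564 and 2180 in KO2, were the largest of the 10 genes in every library. Its level was 346 and 319 CPM in WT and 325 and 291 CPM in KO2, so the groups overlapped, and the log2 fold change was -0.11 (SE 0.111, edgeR adjusted p = 0.662). Smarcc2 (ENSMUSG00000025369, mm9 chr10:127896292-127927229, plus strand), which encodes BAF170, was covered by 118 and 118 reads in the WT libraries and by 201 and 177 in the KO2 libraries. That was 44 and 27.9 CPM in WT and 25.5 and 23.7 CPM in KO2. WT replicate 1 stood above the other 3 libraries. The log2 fold change was -0.51 (SE 0.234, edgeR adjusted p = 0.236), and without WT replicate 1 it was -0.18.

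The ratio of Smarcc1 to Smarcc2 counts was 7.86 and 11.4 in WT and 12.8 and 12.3 in KO2. The log2 difference was 0.40 with a pooled SD of 0.27 (exact two-sided permutation p = 0.333, adjusted 0.444). The fitted difference was 0.41 (SE 0.26). Smarcc2 was 11.3% and 8.04% of the pair's counts in WT and 7.27% and 7.51% in KO2, and the interval of WT replicate 2 (6.75 to 9.54%) contained both KO2 shares. Without WT replicate 1 the log2 difference was 0.13. Smarcc1 exceeded Smarcc2 in all 4 libraries.

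Among the linker subunits, Smarcd1 (ENSMUSG00000023018, mm9 chr15:99532718-99544426, plus strand), encoding BAF60A, was covered by 88 and 190 reads in the WT libraries and by 256 and 153 in the KO2 libraries. Its level was 32.8 and 44.9 CPM in WT and 32.5 and 20.5 CPM in KO2. WT replicate 1 and KO2 replicate 1 were almost equal, so the groups were separated by a small margin. The log2 fold change of -0.57 (SE 0.24) did not pass the test (edgeR adjusted p = 0.192). Without KO2 replicate 1 it was -0.95 and passed (adjusted p = 0.0285), and without KO2 replicate 2 it was -0.29 (adjusted p = 0.628), within a range of 0.0285 to 0.797 over 11 alternatives. Smarcd1 exons overlap the antisense Gm17349 over 183 bp, which had at most 1 count in a library. Smarcd3 (ENSMUSG00000028949, mm9 chr5:24096636-24107830, minus strand), encoding BAF60C, known from heart and muscle, was covered by 6 and 18 reads in the WT libraries and by 19 and 29 in the KO2 libraries. These were 2.24 and 4.25 CPM in WT and 2.41 and 3.88 CPM in KO2, and the groups overlapped (log2 fold change -0.14, SE 0.613, edgeR adjusted p = 0.934). At this depth, differences larger than that error could also have gone undetected.

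The ratio of Smarcd1 to Smarcd3 counts was 14.7 and 10.6 in WT and 13.5 and 5.28 in KO2. The groups overlapped, with a log2 difference of -0.52 and a pooled SD of 0.70 (exact two-sided permutation p = 0.667, adjusted 0.667). Smarcd3 was 6.38% and 8.65% of the pair's counts in WT and 6.91% and 15.9% in KO2. The high share belonged to KO2 replicate 2, and without that library the log2 difference changed sign to 0.15. Exons of Smarcd3 overlap those of Chpf2 and Mir671 on the opposite strand over 2564 bp. The strand option used for counting is not given in the sources used here, so Smarcd3 counts are uncertain. The other paralogue, Smarcd2 (BAF60B), had a log2 fold change of -0.25 (SE 0.173, edgeR adjusted p = 0.482). Per exon length Smarcd2 held the largest share of the 3 Smarcd genes in every library, 58.7% and 54% in WT and 59.2% and 63% in KO2, and Smarcd3 held the smallest, from 1.87% to 4.3%. Divided by the longest coding transcript instead, the Smarcd3 share was 4.04% to 8.93%, so its size depends on the length used.

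Neither core subunit passed the test. Smarcb1 (ENSMUSG00000000902, mm9 chr10:75359514-75384362, minus strand), a tumour suppressor gene encoding BAF47, was covered by 133 and 235 reads in the WT libraries and by 468 and 461 in the KO2 libraries. The WT levels were 49.6 and 55.5 CPM and the KO2 levels 59.3 and 61.6 CPM. Its groups did not overlap, but the log2 fold change of 0.20 (SE 0.162) did not pass the test (edgeR adjusted p = 0.56). Smarce1 (ENSMUSG00000037935, mm9 chr11:99070361-99092331, minus strand), encoding BAF57, was covered by 205 and 346 reads in the WT libraries and by 523 and 576 in the KO2 libraries. It was at 76.4 and 81.8 CPM in WT and at 66.3 and 77 CPM in KO2, with overlap (log2 fold change -0.15, SE 0.15, edgeR adjusted p = 0.661). In the mm9 genome, 43.5% of the 31-base words of the longest coding Smarce1 transcript also occurred elsewhere, against 12.9% for Smarcc1, 7.84% for Arid1a and 2.06% or less for the other 7 genes. Reads from such stretches may be missing from the counts or shared with copies. By this measure alone, the level of Smarce1 was the least certain. No such word was shared within any of the 4 pairs.

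Levels of different genes were compared per kilobase of annotated exons. In WT the order of mean level was Smarcc1 (50 CPM per kb), Smarca4 (30.9), Smarcd1 (12.3), Smarce1 (11.9), Arid1a (7.45), Smarcc2 (7.15), Smarcb1 (6.46), Arid1b (2.28), Smarca2 (0.922) and Smarcd3 (0.714). The WT values overlapped between Smarcd1 and Smarce1, between Arid1a and Smarcc2, between Smarcc2 and Smarcb1, and between Smarca2 and Smarcd3. In KO2 the first 2 places and the last 3 were held as in WT. The KO2 means were 46.4 CPM per kb for Smarcc1, 35.3 for Smarca4, 3.74 for Arid1b, 2.36 for Smarca2 and 0.692 for Smarcd3. The order depended on the length used, an alternative chosen after the data were seen. Divided by the longest coding transcript, of 1660 bp in place of 8133 bp of exons, Smarcb1 was at 31.6 CPM per kb in WT, rank 2 instead of 7. By the same measure Smarcd3 was at 1.87 and Smarca2 at 1 CPM per kb in WT. Smarcc1 had the highest mean by both lengths.

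**Figure D3:**
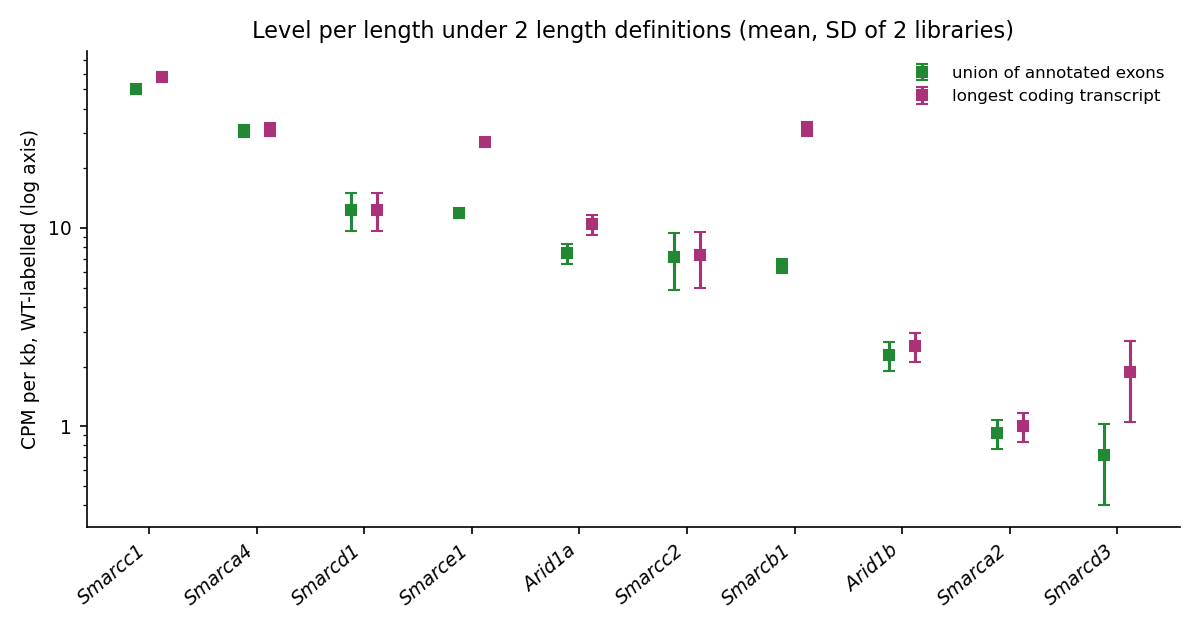
Level of each BAF gene in the WT-labelled libraries in CPM per kb (log axis, mean and SD of 2 libraries), divided by the union of annotated exons (green) or by the longest coding transcript (purple). Smarcc1 is highest by both, and Smarcb1 moves from 6.46 to 31.6 CPM per kb.

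The remaining SWI/SNF subunits were taken from a list of 21 genes, of which 20 were found and 17 passed the filter. Of these 17, 1 was higher in KO2 and 1 was lower, against 2.6% higher and 3.04% lower of all genes tested. The median log2 fold change of the 17 was -0.18. Actb, whose product is cytoskeletal actin and also a BAF subunit, rose from 1018 and 1075 CPM in WT to 1512 and 1331 CPM in KO2 (log2 fold change 0.44, SE 0.102, edgeR adjusted p = 0.0139). Its call was lost without WT replicate 1 (adjusted p = 0.176), without WT replicate 2 (0.0902) and without KO2 replicate 1 (0.0806), within a range of 0.000296 to 0.899 over 11 alternatives. Phf10, a subunit of the PBAF form, fell from 86.8 and 87.9 CPM to 51.4 and 64.7 CPM (log2 fold change -0.59, SE 0.157, edgeR adjusted p = 0.0321). Phf10 exons overlap an antisense gene over 485 bp, and its call was lost without WT replicate 1 (adjusted p = 0.127), WT replicate 2 (0.117) or KO2 replicate 1 (0.295) and with DESeq2 (0.084), within a range of 0.00821 to 0.83.

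The other PBAF subunits did not pass the edgeR test. Pbrm1, its polybromo subunit, was at 366 and 354 CPM in WT and 279 and 313 CPM in KO2 (log2 fold change -0.28, adjusted p = 0.157). Arid2 and Brd7 had log2 fold changes of 0.07 and -0.09. Brd9, of the non-canonical complex, had -0.18. For the ESC-type partner subunits the log2 fold changes were -0.18 for Actl6a, 0.39 for Dpf2 and 0.24 for Ss18. Bcl7a was at 10.8 and 22.4 CPM in WT and 9.89 and 5.35 CPM in KO2 (-1.18, SE 0.391, adjusted p = 0.0877), and Bcl7b and Bcl7c had -0.17 and -0.14.

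The subunits that characterise BAF in neurons were low or not detected. Actl6b, encoding BAF53B, had 0 counts in every library, which allows up to 1.12 CPM in the shallowest. Dpf3 was covered by 5 and 6 reads in the WT libraries and by 5 and 2 in the KO2 libraries and was not tested. Dpf1 was at 7.08 and 5.91 CPM in WT and 6.59 and 3.88 CPM in KO2, and Ss18l1 at 4.84 and 4.25 against 4.57 and 4.01 CPM. Both overlapped between the labels and did not pass the test (edgeR adjusted p = 0.822 and 0.965).

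**Figure D4:**
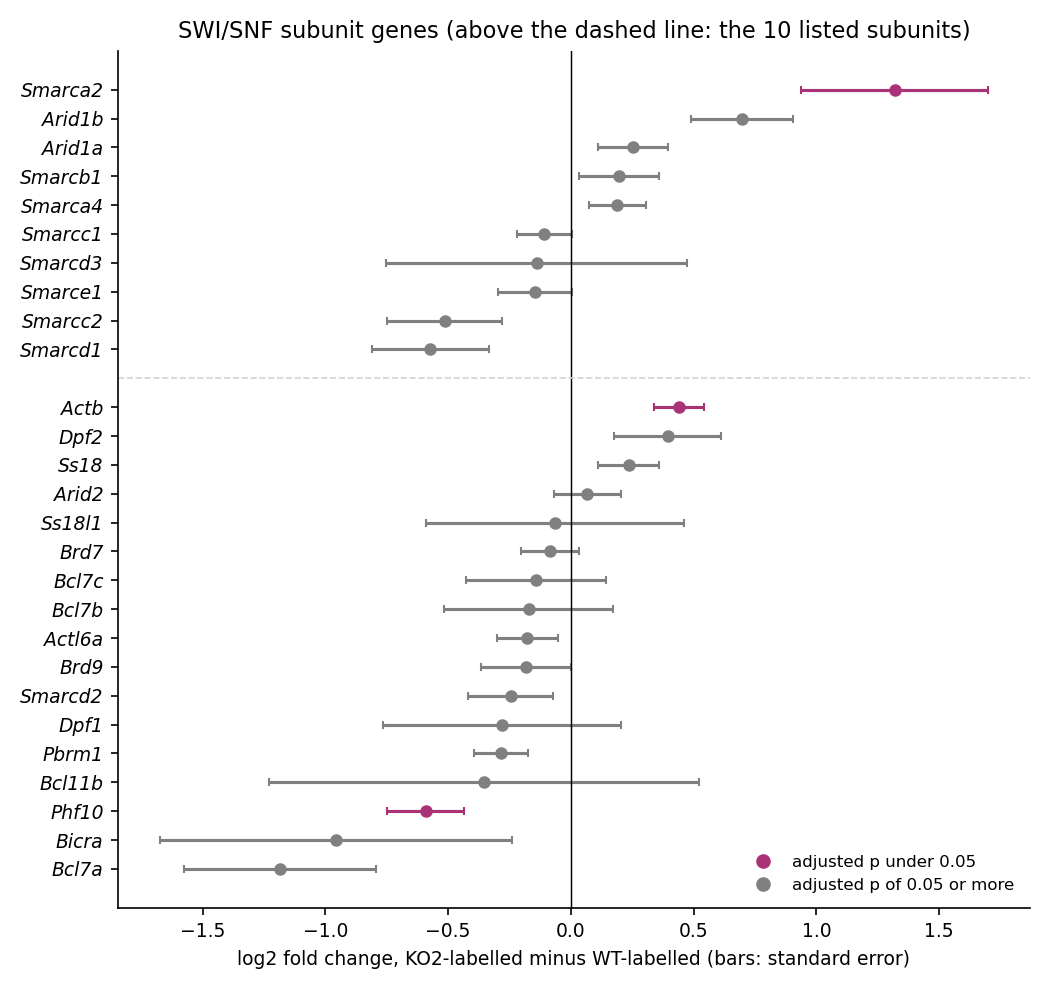
Log2 fold change (KO2-labelled minus WT-labelled) with its standard error for the 10 BAF genes above the dashed line and the 17 other tested SWI/SNF subunit genes below it; purple marks adjusted p under 0.05. Smarca2 at 1.32, Actb at 0.44 and Phf10 at -0.59 are marked, and all other points are grey.

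Lists of the other remodeller families were read in the same fit for comparison. Over all genes tested, 5.64% passed edgeR, 19.4% had an unadjusted edgeR p under 0.05 and 4.01% passed DESeq2. Of 12 ISWI genes, 0 passed edgeR at the adjusted threshold, 2 had an unadjusted p under 0.05 and 0 passed DESeq2, with a median log2 fold change of -0.12. Of 23 genes of the INO80, SRCAP and TIP60-p400 complexes, 0 passed edgeR, 4 had an unadjusted p under 0.05 and 0 passed DESeq2, with a median of -0.10. Of 16 CHD and other SNF2 genes, 1 passed edgeR, 3 had an unadjusted p under 0.05 and 2 passed DESeq2 (Hells and Ercc6), with a median of -0.03. The edgeR call was Ercc6, a SNF2-family gene of transcription-coupled repair, which fell from 54.4 and 54.8 CPM in WT to 33.9 and 27.9 CPM in KO2 (log2 fold change -0.82, SE 0.184, edgeR adjusted p = 0.0116). Its call was lost without WT replicate 1 (adjusted p = 0.0707), WT replicate 2 (0.0622) or KO2 replicate 2 (0.0659), within a range of 0.00241 to 0.435 over 11 alternatives.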

How the data were processed

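RNA of 4 libraries was sequenced. The authors deposited 1 table of raw read counts per gene and library. The submitters' processing notes name HISAT2, HTSeq and DESeq2 and the genome build mm9. The versions and the strand option are not given in the sources used here. Rows for ERCC spike-ins and for reads that were ambiguous, multiply aligned or outside genes were kept out of library sizes. Ambiguous reads made up 2.08 to 4.06% of all rows, and reads in stretches that occur more than once may be missing from the gene counts. Of 48526 gene IDs, 32782 matched the mm9 annotation (GENCODE M1).

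Genes passing filterByExpr (minimum count 10, minimum total 15) were fitted with edgeR 4.0.16 in R 4.3.3 (TMM, quasi-likelihood F-test), and p-values were Benjamini-Hochberg adjusted over all genes tested, with a threshold of 0.05. SEs were the log2 fold change divided by the square root of F. Paralogue ratios used counts plus 0.5 and an exact two-sided permutation test. DESeq2 1.42.0, other normalizations and filters, a replicate block and the omission of each library were tried as alternatives. The procedure was tested on simulated counts with the same dispersion for every gene. Real libraries may differ from that setting, so the simulation does not show how reliable the calls are here. Named were all 10 BAF genes, Zfp296, up to 6 called genes per remodeller list and a fixed set of SWI/SNF subunits. The genes and lists were chosen with earlier results of these data known. Bicral and Sox1 were not matched by symbol and were not analysed, and one further gene of the neural progenitor list is not reported here.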

Additional observations from a re-analysis of the deposited data

How the results depend on the processing

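Over all genes, 726 calls became 163 with scaling to the ERCC spike-ins, 454 with DESeq2 (11334 genes with an adjusted p) and 61 with no filter on low counts, and lay between 270 and 691 when 1 replicate was left out. Of the 10 BAF genes, 2 (Smarca2 and Arid1b) passed with RLE normalization, against 6.23% of all genes tested. With at least 10 counts in every sample, 2 passed (9 tested), against 7.03% of all genes tested. With ERCC scaling (1.27% of all genes tested), DESeq2 (4.01%) or no filter (0.24%), 0 BAF genes passed. When 1 replicate was left out, the log2 fold change stayed between 1.19 and 1.53 for Smarca2 and between 0.52 and 0.90 for Arid1b. The 17 remaining SWI/SNF subunits and the 12, 23 and 16 genes of the other remodeller families together gave 3 calls (Actb, Phf10 and Ercc6). Over all genes tested, 5.64% passed. With DESeq2 the 3 calls were Actb, Hells and Ercc6, against 4.01% of all genes tested. With ERCC scaling (1.27%) or no filter (0.24%), 0 of these genes passed. Zfp296 kept its direction, with a log2 fold change of 2.35 but adjusted p = 0.0573 with no filter. The cause of these changes was not tested.

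The replicate block gave 946 calls, 7.34% of all genes tested. It passed 2 BAF genes, Smarca2 (edgeR adjusted p = 0.0306) and Arid1b (0.0282). However, same-numbered libraries did not deviate together (correlation -0.02), so the libraries share only a number. Smarca4/Smarca2 kept its direction, with a log2 difference of -0.90 when 5 was added to each count and -1.28 to -0.99 when 1 replicate was left out. Smarcd1/Smarcd3 ran from -1.19 to 0.15 and Smarcd3 from -0.52 to 0.48, with Smarcd3 at 0.48 without WT replicate 2 and 0.17 without KO2 replicate 1. The other 9 BAF genes kept their direction in all 11 alternatives. The differences between the fitted log2 fold changes were computed after the data were seen. Depth limits the low genes: Smarcd3 rests on 6 to 29 counts in a library and Smarca2 on 14 and 28 in WT.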
